A study of Homo sapiens with 6 samples.

Results

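The 10 genes described here are NFE2L2, which encodes the transcription factor NRF2, and 9 genes that NRF2 is known to drive: the heme oxygenase gene HMOX1, NQO1, GCLC, GCLM, TXNRD1, SRXN1, OSGIN1 and the ferritin subunit genes FTL and FTH1. They were chosen by name, Ensembl identifiers being matched to GENCODE symbols, and all 10 were found among the 28563 genes of the table and passed the minimum for testing, which 14400 genes did. RNA was sequenced from cells labelled HepG2, an established line grown from a human liver tumour. Treated cells received polydatin (PD), a glucoside of the plant polyphenol resveratrol, and control cells received DMSO, the solvent, with 3 libraries from separate plates in each group. The labels give 336 µM PD and a harvest after 24 h, and the paper's methods give a lower dose. Nothing else differs between the groups in the labels, and a single dose and time were sampled, so no order of events can be read from the values. Values are FPKM, in which the fragments of a gene are scaled by its length and by the size of the library.

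In resting cells NRF2 is bound by KEAP1, which hands it to a CUL3 ubiquitin ligase for destruction. Electrophiles and oxidants modify KEAP1, after which NRF2 enters the nucleus, pairs with a small MAF protein and binds the antioxidant response element (ARE), a site from which BACH1 can keep it. Heme oxygenase 1 splits heme into biliverdin, carbon monoxide and iron, and ferritin stores the iron. Much of the control of NRF2 acts on the protein, which RNA-seq does not measure. Ferritin translation is in turn held back by iron regulatory proteins on an iron-responsive element (IRE) in the leader of its mRNA, and the same proteins stabilise the mRNA of the transferrin receptor, TFRC.

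The labelled cell type was checked against 14 hepatocyte genes, of which 8 were analysed here. Of these only CPS1 and RBP4 reached 1 FPKM in any library, while APOA1, TF, SERPINA1, FGA and HNF4A were at most 0.172 FPKM, so the liver markers that were analysed were largely absent and these values go against the label. The cells are called HepG2 here only as labelled. CPS1 was 106 to 228 FPKM and made up nearly all of the summed hepatocyte level, which was 222 to 229 FPKM in DMSO and 107 to 113 FPKM in PD. The epithelial keratin genes KRT8 and KRT18 were present, while EPCAM was 0.882 to 1.54 FPKM, CDH1 was at most 0.145 FPKM and KRT19 was not analysed here. The summed list of epithelial genes was 95.4 to 101 FPKM in DMSO and 114 to 120 FPKM in PD. Mean KRT8 rose from 50.1 FPKM in DMSO to 68.9 FPKM in PD, and mean KRT18 went from 46.5 to 47.7 FPKM. The mesenchymal list summed to 23.9 to 25.5 FPKM in DMSO and 32.4 to 34.1 FPKM in PD. Most of this sum was VIM, whose mean rose from 20.7 FPKM in DMSO to 29.6 FPKM in PD. Mean COL1A1 was 3.46 FPKM in DMSO and 3.45 FPKM in PD, and COL3A1 was at or near 0. Summed endothelial, leukocyte and erythroid markers stayed at or below 0.707 FPKM in every library. These shifts move with treatment, and their part in the results below was not tested. The libraries held 16308476 to 18071632 fragments, and no library stood apart as a duplicate, since the chi-square statistic between libraries of a group was 2.30 to 3.77 per gene, where sampling noise gives about 1.

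The sequences near annotated starts of these genes were searched for the letters of NRF2-type sites. A match of letters does not show that NRF2 binds there, and which starts these cells use was not measured. RefSeq promoter windows (GRCh38.p14, 250 bases before to 50 after a start) matched 8 of the 10 members, with 10 windows in all, and the entries for HMOX1 and FTH1 are missing. The ARE core was searched as TGACNNNGC on both strands and was found in 13.3% of all 35116 windows. It was found in the GCLM window and in both TXNRD1 windows. The AP-1 site, TGANTCA on both strands, can overlap the ARE core and was found in 7.71% of windows, and OSGIN1 was the member that held it. Windows of NFE2L2, NQO1, GCLC, SRXN1 and FTL held neither string, which says only that these letters are not there. The stretches that follow run 5′ to 3′ along the gene's strand and end before its start, with the match in capitals. GCLM lies on the minus strand at chr1:93909431-93909504, TXNRD1 on the plus strand at chr12:104286890-104286978 (its downstream start), and OSGIN1 on the plus strand at chr16:83953103-83953189.
GCLM: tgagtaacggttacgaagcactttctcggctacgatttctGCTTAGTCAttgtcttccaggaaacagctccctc
TXNRD1: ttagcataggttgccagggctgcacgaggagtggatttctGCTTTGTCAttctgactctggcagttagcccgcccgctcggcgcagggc
OSGIN1: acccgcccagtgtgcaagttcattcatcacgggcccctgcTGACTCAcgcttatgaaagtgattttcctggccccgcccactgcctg

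The GCLM and TXNRD1 matches printed here read in the reverse direction, as GCTTAGTCA and GCTTTGTCA. The FTL leader carries the loop of the IRE, searched as CAGTGN on the transcript strand of the first 50 bases and present in 6.36% of windows. It is shown, with its loop in capitals, because ferritin translation is controlled through this element, so ferritin protein need not follow ferritin mRNA. The stretch lies on the plus strand at chr19:48965336-48965358, bases 28 to 50 of the transcript.
FTL: tcttgcttcaaCAGTGTttggac

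All 10 genes had an adjusted p of at most 0.05 from limma on log2(FPKM + 1), adjusted by the Benjamini-Hochberg method over all 14400 tested genes. Of these, 8 were higher in PD (HMOX1, OSGIN1, FTL, SRXN1, NQO1, FTH1, GCLC and GCLM) and 2 were lower (NFE2L2 and TXNRD1). The same threshold was passed by 58.1% of all tested genes, 31.9% as higher and 26.2% as lower, so passing it is common in these libraries. HMOX1 and OSGIN1 were also changed by at least 2-fold on this scale and are termed DEGs (differentially expressed genes), as are 2.04% of tested genes in the upward and 1.57% in the downward direction. These shares make 520 DEGs over all genes, a number that was 1248 at the pseudocount 0.1 and 1734 in voom, while the 10 genes held 2 in each. In 9 of the 10 genes the PD and DMSO libraries did not overlap, which held for 65.4% of tested genes. The median log2 fold change of the 10 genes was 0.36, and that of all tested genes was 0.01. In bulk RNA, fewer cells of a type and less RNA per cell cannot be told apart.

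**Figure D1:**
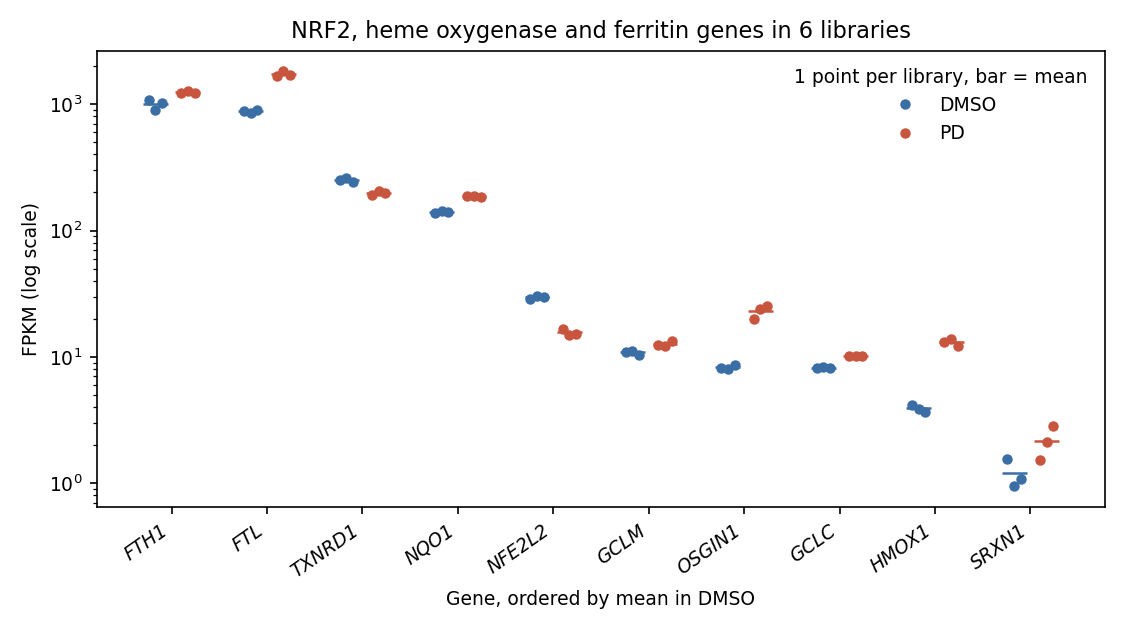
FPKM of the 10 genes in each of the 6 libraries on a log axis, with genes ordered by their DMSO mean, 1 point per library and a bar at the group mean. FTL, OSGIN1 and HMOX1 show the widest upward gaps, NFE2L2 and TXNRD1 lie lower in PD, and the groups overlap in SRXN1.

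NFE2L2 (ENSG00000116044, minus strand of chromosome 2 from 177218667 to 177392756) encodes the factor itself. DMSO replicates 1, 2 and 3 had 28.8, 30.5 and 29.6 FPKM, and PD replicates 1, 2 and 3 had 16.7, 14.9 and 15.2 FPKM. Every PD library thus lay well below every DMSO library. The PD mean was 0.528 times the DMSO mean, with a log2 fold change of -0.88, a 95% interval of -1.0 to -0.76 and an adjusted p of 1.1e-05 (limma). It stood at place 335 from the lowest of the 14400 log2 fold changes. Annotated NFE2L2 exons overlap another gene on the same strand over 2037 bases, and AGPS and HNRNPA3 on the opposite strand, so its level is less certain. Among genes averaging at least 5 FPKM, the gene whose profile lay nearest to NFE2L2 over the 6 libraries was TUG1, followed by PLA2G4A and MKI67, with root mean square differences of 0.03, 0.04 and 0.04 on the log2 scale. All 6 points of each profile share their libraries and the same treatment, and 7575 genes were compared.

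HMOX1 (ENSG00000100292, plus strand of chromosome 22 from 35380361 to 35394214) encodes the inducible heme oxygenase and rose by the most among the 10 genes in the fit described above. Its level was 4.19, 3.87 and 3.69 FPKM in DMSO replicates 1, 2 and 3, and 13.1, 13.8 and 12.3 FPKM in PD replicates 1, 2 and 3. The lowest PD library was far above the highest DMSO library. The PD mean was 3.33 times the DMSO mean, and the log2 fold change was 1.51, with a 95% interval of 1.37 to 1.66 and an adjusted p of 3.5e-06 (limma). Only 42 of the 14400 tested genes had a larger log2 fold change. These values rest on 152 to 174 fragments per DMSO library and 481 to 581 per PD library, and no other annotated exon overlaps the gene. The nearest profiles among genes averaging at least 5 FPKM were those of NRIP3, PEG10 and DCXR, with root mean square differences of 0.05, 0.05 and 0.06 on the log2 scale over the 6 libraries.

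OSGIN1 (ENSG00000140961, plus strand of chromosome 16 from 83931311 to 83966332) encodes an oxidative stress-induced growth inhibitor. DMSO replicates 1, 2 and 3 had 8.10, 8.0 and 8.67 FPKM, against 20.1, 23.9 and 25.4 FPKM in PD. The groups were clearly apart, and the PD libraries spread more widely (SD 2.73, n = 3) than the DMSO libraries (SD 0.360, n = 3). The mean was 2.81 times higher in PD, with a log2 fold change of 1.38, a 95% interval of 1.18 to 1.57 and an adjusted p of 1.5e-05 (limma). This interval overlaps that of HMOX1, and the difference between the genes was not tested. Part of its exons overlap MLYCD on the same strand.

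SRXN1 (ENSG00000271303, minus strand of chromosome 20 from 646615 to 653200) encodes sulfiredoxin, which repairs overoxidised peroxiredoxins. It had the lowest level of the 10 genes, 1.57, 0.951 and 1.08 FPKM in DMSO and 1.54, 2.11 and 2.82 FPKM in PD, in the order of replicates 1, 2 and 3. PD replicate 1 lay below DMSO replicate 1, so the groups overlap. The log2 fold change was 0.51, with a 95% interval of 0.12 to 0.90 and an adjusted p of 0.033 (limma), from 43 to 73 fragments per DMSO library and 75 to 124 per PD library. The call was lost when any of DMSO replicate 2, DMSO replicate 3, PD replicate 2 or PD replicate 3 was left out (adjusted p of 0.097, 0.085, 0.079 and 0.095) and with no filter on FPKM (adjusted p of 0.099). Most of its exon sequence also lies in another annotated gene on the same strand.

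NQO1 (ENSG00000181019, minus strand of chromosome 16 from 69706996 to 69726668) encodes a quinone reductase and is commonly read as a marker of NRF2 activity. Its level was 138, 142 and 141 FPKM in DMSO replicates 1, 2 and 3, and 186, 188 and 184 FPKM in PD. The libraries within each group were nearly level, and the groups did not overlap. An annotated gene on the opposite strand shares 575 exon bases with NQO1. The PD mean was 1.33 times the DMSO mean, a log2 fold change of 0.41 with a 95% interval of 0.35 to 0.47 and an adjusted p of 1.7e-05 (limma). The rise was small beside that of HMOX1, and it stood at place 2533 from the highest of the tested log2 fold changes.

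GCLC (ENSG00000001084, minus strand of chromosome 6 from 53497341 to 53616970) and GCLM (ENSG00000023909, minus strand of chromosome 1 from 93885199 to 93909456) encode the catalytic and the modifier subunit of glutamate-cysteine ligase, the first enzyme of glutathione synthesis. GCLC had 8.17, 8.35 and 8.13 FPKM in DMSO and 10.2, 10.1 and 10.1 FPKM in PD. GCLM had 10.9, 11.2 and 10.4 FPKM in DMSO and 12.4, 12.2 and 13.3 FPKM in PD. Both genes were higher in every PD library than in any DMSO library, by little. GCLC exons overlap another annotated gene on the same strand (529 bases) and the antisense gene GCLC-AS1 (305 bases), while those of GCLM overlap no other gene. Their log2 fold changes were 0.27 (95% interval 0.18 to 0.36, adjusted p of 6.6e-04) for GCLC and 0.21 (95% interval 0.09 to 0.32, adjusted p of 0.0083) for GCLM in limma. The ratio of GCLC to GCLM was 0.758 ± 0.0185 in DMSO and 0.802 ± 0.0379 in PD (SD, n = 3 each), and the groups overlapped (two-sided exact permutation p = 0.20, where 0.10 is the smallest that 3 against 3 libraries can give).

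TXNRD1 (ENSG00000198431, plus strand of chromosome 12 from 104215779 to 104350307) encodes thioredoxin reductase 1, a selenoprotein that keeps thioredoxin reduced. DMSO replicates 1, 2 and 3 had 252, 262 and 244 FPKM, and PD replicates 1, 2 and 3 had 192, 204 and 197 FPKM. It was lower in every PD library than in any DMSO library. The PD mean was 0.782 times the DMSO mean, a log2 fold change of -0.35 with a 95% interval of -0.44 to -0.27 and an adjusted p of 1.6e-04 (limma). TXNRD1 thus changed in the direction opposite to the other 8 target genes, at a level that was the third highest of the 10 in both groups. Both of its promoter windows hold the ARE core, as does that of GCLM, whose level rose. Whether a match of these letters bears on the direction of change was not tested.

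**Figure D2:**
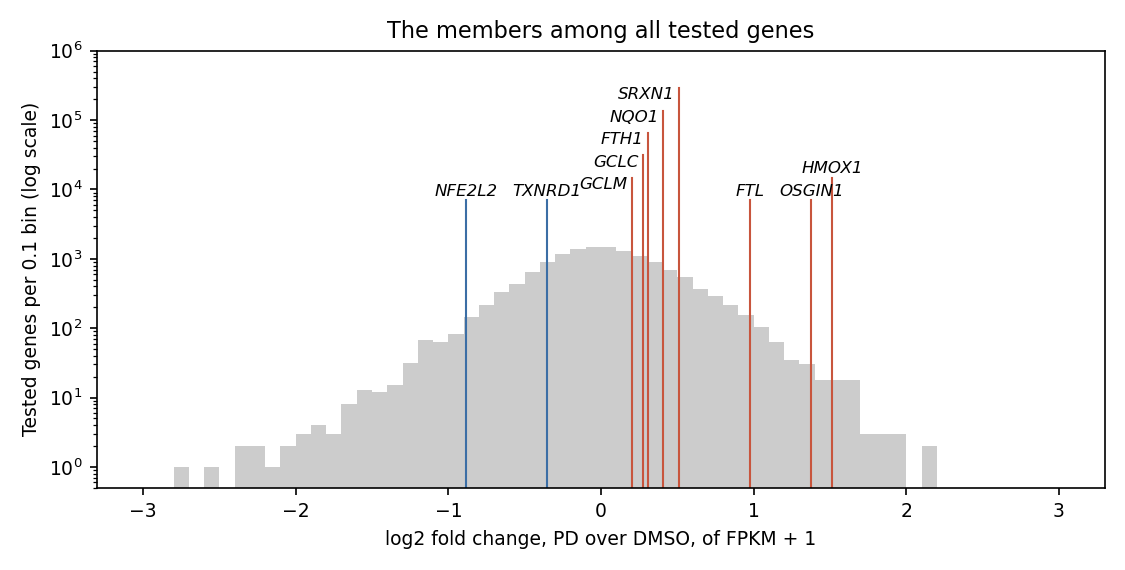
Number of tested genes per bin of 0.1 in log2 fold change (PD over DMSO, FPKM + 1) on a log axis, with a line at each of the 10 genes, red for higher and blue for lower. HMOX1 at 1.51 and OSGIN1 at 1.38 lie in the upper tail, while NQO1, FTH1, GCLC and GCLM lie between 0.21 and 0.41, within the bulk of genes.

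The ferritin genes were the most abundant of the 10 genes. FTL (ENSG00000087086, plus strand of chromosome 19 from 48965309 to 48966879), the light chain, had 887, 854 and 895 FPKM in DMSO replicates 1, 2 and 3, and 1672, 1814 and 1711 FPKM in PD. The PD libraries were all far above the DMSO libraries, on 12563 to 13459 fragments per DMSO library and 24497 to 27913 per PD library. The PD mean was 1.97 times the DMSO mean, and the log2 fold change of 0.98 (95% interval 0.89 to 1.06, adjusted p of 3.2e-06 in limma) was just short of the 2-fold threshold, which it reached without PD replicate 1 (log2 fold change of 1.0). FTH1 (ENSG00000167996, minus strand of chromosome 11 from 61959718 to 61967634), the heavy chain with the ferroxidase activity, had 1088, 901 and 1021 FPKM in DMSO and 1222, 1262 and 1227 FPKM in PD. Its groups did not overlap either, although DMSO replicate 2 was lower than the other 2. The PD mean was 1.23 times the DMSO mean, with a log2 fold change of 0.31, a 95% interval of 0.16 to 0.46 and an adjusted p of 0.0048 (limma).

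The order of the ferritin chains changed with treatment. FTH1 exceeded FTL in all 3 DMSO libraries, and FTL exceeded FTH1 in all 3 PD libraries. The ratio of FTH1 to FTL was 1.23, 1.06 and 1.14 in DMSO and 0.731, 0.696 and 0.717 in PD, and the groups did not overlap (two-sided exact permutation p = 0.10, the smallest possible). FTH1 and FTL have processed pseudogenes whose reads are hard to assign. The 15 FTH1P pseudogenes of the table summed to 3.57% to 5.17% of the FTH1 level, and the 2 FTLP pseudogenes to 0.0610% to 0.340% of the FTL level. The FTH1P sum was 47.2 ± 8.49 FPKM in DMSO and 47.7 ± 3.51 FPKM in PD (SD, n = 3 each). Adding the pseudogenes to their parent genes gave log2 differences of 0.30 for FTH1 and 0.98 for FTL. Exons of FTH1 overlap BEST1 on the opposite strand (1267 bases).

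**Figure D3:**
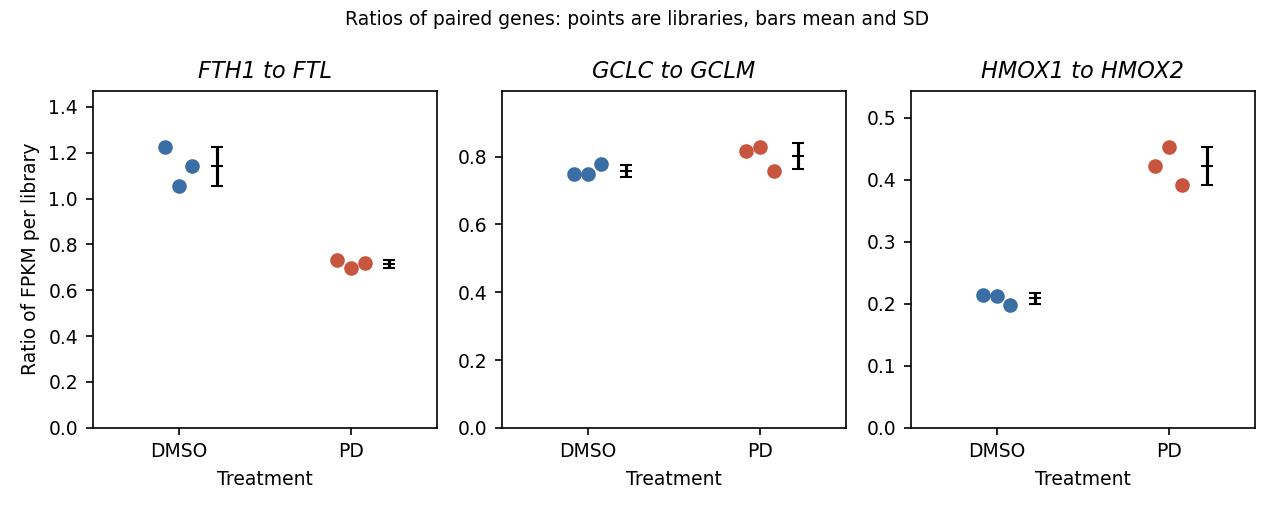
Ratio of FPKM between paired genes in each library, from 0, with DMSO in blue and PD in red, points for libraries and black bars for mean and SD (n = 3). FTH1 to FTL is above 1 in all DMSO libraries and below 1 in all PD libraries, GCLC to GCLM overlaps between groups, and HMOX1 to HMOX2 is higher in PD.

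In DMSO the order of levels per length was FTH1, FTL, TXNRD1, NQO1, NFE2L2, GCLM, OSGIN1, GCLC, HMOX1 and SRXN1. In PD it was FTL, FTH1, TXNRD1, NQO1, OSGIN1, NFE2L2, HMOX1, GCLM, GCLC and SRXN1. Neighbours in this order had separate ranges over the 3 libraries except OSGIN1 and GCLC in DMSO, and HMOX1 and GCLM in PD. NFE2L2 passed from above OSGIN1 to below it, and HMOX1 rose from the ninth to the seventh place.

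Of 12 other regulators and partners of NRF2, all tested, limma called 4 higher and 3 lower in PD, a share close to the 58.1% of all tested genes, and the median of the list was -0.04 on the log2 scale. SQSTM1, which encodes the autophagy receptor p62 that binds KEAP1, was the DEG of this list. It had 82.8, 73.4 and 80.9 FPKM in DMSO and 178, 198 and 188 FPKM in PD, a log2 fold change of 1.24 (95% interval 1.11 to 1.37, adjusted p of 5.4e-06), and its groups did not overlap. SQSTM1 exons overlap MGAT4B and MRNIP on the opposite strand. KEAP1, the gene of the NRF2 inhibitor, was 12.5 to 13.3 FPKM in DMSO and 14.4 to 17.4 FPKM in PD, and its log2 fold change was 0.26 (adjusted p of 0.011). Among the small MAF partners, MAFK fell by 0.73 on the log2 scale (adjusted p of 3.2e-04), from 78.8 to 100 FPKM in DMSO to 50.4 to 53.2 FPKM in PD. MAFF also fell, from 9.04 to 9.80 FPKM in DMSO to 5.31 to 6.22 FPKM in PD, by 0.62 on the log2 scale (adjusted p of 1.5e-04). MAFG had a log2 fold change of -0.09 (95% interval -0.17 to 0.00, adjusted p of 0.083), and it was called lower under both rescalings (adjusted p of 0.035 and 0.019). Exons of MAFK overlap TMEM184A (809 bases) and those of MAFF overlap PLA2G6 (326 bases), both on the opposite strand. MAFG shares 105 exon bases with SIRT7 on the same strand and 224 with another gene on the opposite strand. BACH1, the repressor at AREs, was not called, with 10.2 ± 0.570 FPKM in DMSO and 10.7 ± 0.142 FPKM in PD (SD, n = 3 each) and a 95% interval of -0.05 to 0.18.

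Of 21 other NRF2 target genes, 18 were tested, and 11 were higher and 4 lower in PD, with a median log2 fold change of 0.22. Over all tested genes 31.9% were higher and 26.2% lower. EPHX1, which encodes microsomal epoxide hydrolase, rose by the most, from 38.4 ± 2.32 FPKM in DMSO to 84.4 ± 4.16 FPKM in PD (mean ± SD, 3 libraries each), by 1.12 on the log2 scale with an adjusted p of 6.3e-06 (limma). The peroxide-reducing PRDX1 rose from 228 ± 7.57 FPKM in DMSO to 399 ± 7.89 FPKM in PD (mean ± SD, 3 libraries each), by 0.80. on the log2 scale PGD, which encodes an NADPH-yielding enzyme of the pentose phosphate pathway, rose by 0.80 on the log2 scale. AKR1C2, an aldo-keto reductase gene, was the DEG that fell, from 21.1 ± 1.17 FPKM in DMSO to 9.27 ± 0.417 FPKM in PD (mean ± SD, 3 libraries each), and its log2 fold change was -1.10 (adjusted p of 6.3e-06). AKR1C2 has near-identical relatives, so its reads may be shared with them, and AKR1C1 was below the 0.5 FPKM minimum. SLC7A11, which encodes the cystine importer, was not called at 30.2 ± 2.03 FPKM in DMSO and 27.3 ± 1.81 FPKM in PD (mean ± SD, 3 libraries each), and its log2 fold change was -0.14 (adjusted p of 0.095). It was called lower by voom on fragments, under both rescalings and without DMSO replicate 3 (adjusted p of 0.016, 0.038, 0.033 and 0.035). AKR1B10 and GPX2 were not tested because of their low level.

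**Figure D4:**
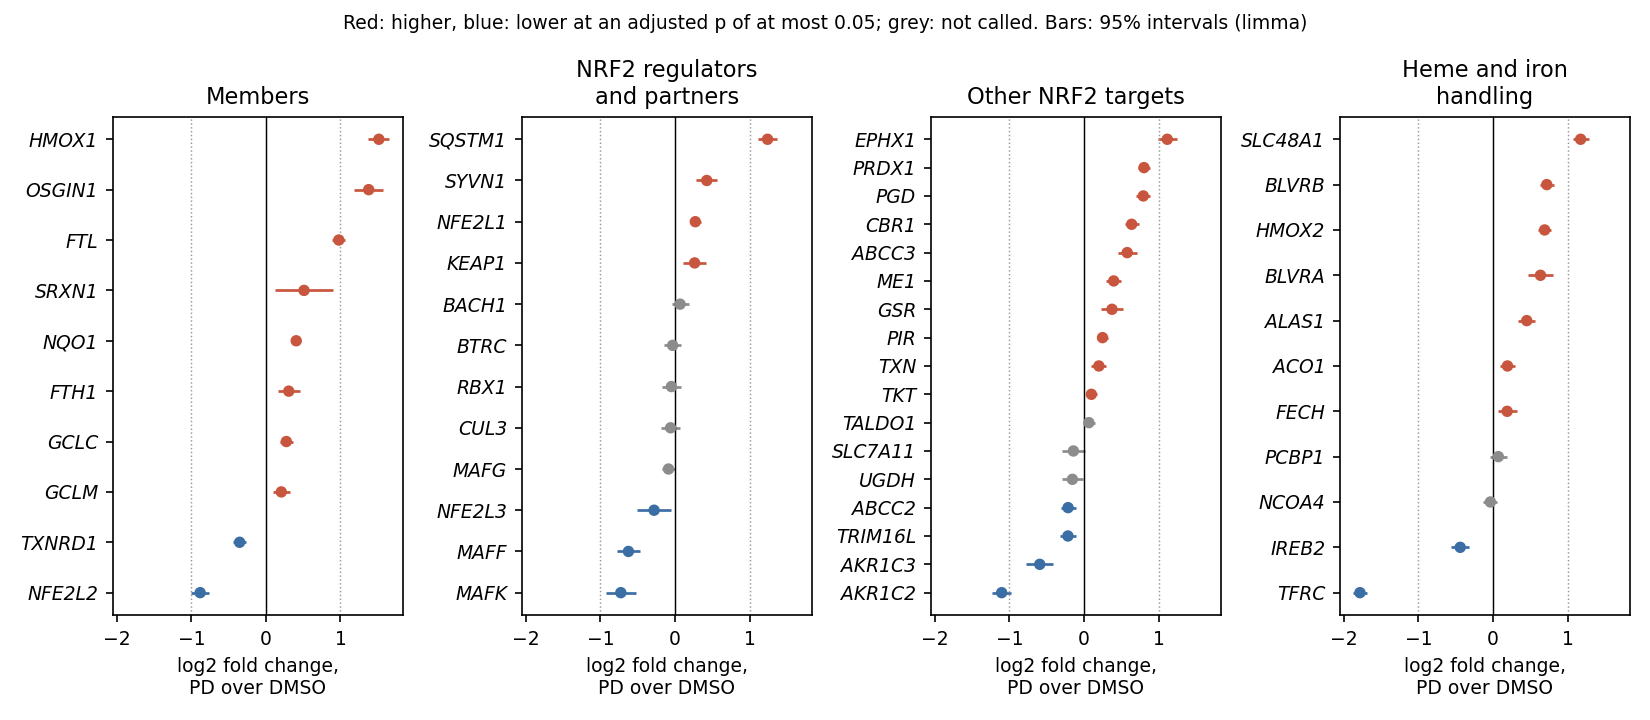
Log2 fold change (PD over DMSO, FPKM + 1) with 95% intervals from limma for the 10 genes and for the reported genes of the other lists, with dotted lines at 2-fold. HMOX1, OSGIN1, SQSTM1, EPHX1 and SLC48A1 lie beyond 2-fold upward, and AKR1C2 and TFRC beyond 2-fold downward.

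Of 13 other genes of heme and iron handling, 11 were tested, and 7 were higher and 2 lower in PD, beside 31.9% and 26.2% of all tested genes, with a median log2 fold change of 0.19. HMOX2, the constitutive heme oxygenase, rose from 18.8 ± 0.663 FPKM in DMSO to 30.9 ± 0.489 FPKM in PD (mean ± SD, 3 libraries each), by 0.69 on the log2 scale with an adjusted p of 9.5e-06 (limma). HMOX1 remained below HMOX2 in every library, and the ratio of HMOX1 to HMOX2 was 0.209 ± 0.00872 in DMSO and 0.422 ± 0.0312 in PD (SD, n = 3 each; two-sided exact permutation p = 0.10, the smallest possible). This ratio was chosen after the values had been seen. BLVRB, which encodes a biliverdin reductase acting after heme oxygenase, rose from 50.3 ± 2.16 FPKM in DMSO to 83.6 ± 2.1 FPKM in PD (mean ± SD, 3 libraries each), by 0.72. on the log2 scale SLC48A1, which encodes a heme transporter, rose from 11.5 ± 0.532 FPKM in DMSO to 27.3 ± 0.849 FPKM in PD (mean ± SD, 3 libraries each), by 1.17 on the log2 scale with an adjusted p of 3.2e-06.

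TFRC, the transferrin receptor gene, moved against the ferritin genes. It had 86.1, 93.5 and 90.6 FPKM in DMSO replicates 1, 2 and 3 and 26.1, 24.7 and 25.4 FPKM in PD, and the groups lay far apart. Its log2 fold change was -1.78 (95% interval -1.88 to -1.69, adjusted p of 8.2e-07 in limma), which 17 tested genes exceeded in the downward direction. SLC40A1, which encodes the iron exporter ferroportin, was at most 0.0138 FPKM in any library and was not tested, and FTMT was not analysed here.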

How the data were processed

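RNA-seq was performed on cells labelled HepG2, with 3 PD and 3 DMSO libraries, grouped by their titles. The authors selected poly(A) RNA, aligned reads to hg38 with HISAT2, counted them with HTSeq 0.6.0 and deposited FPKM per gene, the unit of every value used here. The annotation release and the strand setting of the counting are not given in the sources used here. Overlaps of exons are those of GENCODE release 44 and may differ from those in the counting. They are not printed for every gene named outside the members. For example, PRDX1 and SLC7A11 each overlap a gene on the opposite strand (501 and 865 bases). Symbols were found for 28161 of 28563 genes in GENCODE release 44.

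FPKM were tested by limma 3.58.1 (R 4.3.3) on log2(FPKM + 1) with an intensity-dependent prior variance and no covariates, keeping genes that averaged 0.5 FPKM or more. The pseudocount understates fold changes of low genes. Whole fragments were worked back from the GENCODE exon length for 12772 genes and, for the other 15791, as the lowest whole numbers in the ratio of the gene's FPKM values, which can understate them. They came to at least 99.3% of each library total. The fragments describe depth and served limma voom (at least 10 fragments in 3 libraries). The replicates are separate plates, so p-values measure the spread between plates of a single line.

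Alternatives were a pseudocount of 0.1, no filter, the replicate number as a block, median-of-ratios and upper quartile scaling, voom, and leaving out each library. On simulated data for this comparison with 14560 genes tested, limma on log2(FPKM + 1) called 97 of 100 genes changed by 1.5-fold and 100 of 100 changed by 2.5-fold. These 200 changed genes averaged at least 5 FPKM, the spread was set to 1 fixed value, and 11 unchanged genes were also called. The simulation therefore says nothing about lower genes such as SRXN1, or about data in which most genes change. The members and lists were chosen with earlier results of these data known. Beside the members, the genes named are the 3 of each list with the largest absolute log2 fold change, a set of fixed names (KEAP1, BACH1, SQSTM1, MAFG, SLC7A11, HMOX2, BLVRB, TFRC, SLC40A1 and a further gene that is counted in its list but not reported here), and the 3 nearest profiles of HMOX1 and NFE2L2. PGD, AKR1C1, AKR1B10, GPX2, FTMT, BTRC, NFE2L3, TKT and FECH were named after their values were seen. Exact permutation tests used scipy 1.17.1.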

Additional observations from a re-analysis of the deposited data

How the results depend on the processing

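Over 12 alternatives, 9 of the 10 genes kept their direction and an adjusted p of at most 0.05 (limma) in every setting, and SRXN1 kept its direction in all 12 and its call in 6, its log2 fold change running from 0.36 to 0.81. HMOX1 ran from 1.47 to 1.73, OSGIN1 from 1.31 to 1.48, FTL from 0.93 to 1.00 and NFE2L2 from -0.93 to -0.85, so whether FTL reaches 2-fold depends on the setting. In the other lists BTRC, not called, had a log2 fold change of -0.055 to 0.000896 with a library left out, turning positive without DMSO replicate 2. Some calls counted in those lists were unstable. Of the 12 alternatives, NFE2L3 (lower) kept its call in 6, TKT (higher) in 5 and FECH (higher) in 7. The number of DEGs over all genes, 520 in the fit reported, came to 1248 when the pseudocount alone was changed, to 0.1. Voom gave 1734, and the cause of that difference was not tested. With the replicate number as a block (replicate block), 9 of the 10 genes were called, SRXN1 having an adjusted p of 0.065, and 8032 genes were called in place of 8368. Libraries with the same number did not deviate together (correlations of -0.027, -0.0046 and 0.090 over genes), and of the PD libraries replicate 3 alone correlated best with its own number, so they share only a number. SRXN1 had the fewest fragments of the 10 genes, 43 to 73 per DMSO library, and voom on fragments gave it an adjusted p of 0.0034.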
